A study of Mus musculus with 19 samples.

Results

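The genes described here encode the 5 vascular leukocyte adhesion molecules Sele, Selp, Icam1, Icam2 and Vcam1. They were taken by gene symbol from a bulk RNA-Seq table of 20408 genes in the mouse suprarenal abdominal aorta, where each symbol named 1 row. All 5 had enough counts to be among the 14845 genes tested. The values are normalized counts, that is, the reads of a mouse on a gene divided by the size factor of that mouse.

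Leukocytes leave the blood in steps. E-selectin (Sele) and P-selectin (Selp) on activated endothelium bind sugar-bearing ligands and let leukocytes roll along the vessel wall. The intercellular adhesion molecules ICAM-1 and ICAM-2 then bind the leukocyte β2 integrins, and VCAM-1 binds the integrin α4β1, which stops the cell before it crosses the wall. Sele, Icam1 and Vcam1 are textbook targets of NF-κB, the transcription factor that IKKβ activates. Icam2 is held at a steady level on resting endothelium, Selp protein is also stored in endothelial granules and platelets, and VCAM-1 can be made by smooth muscle cells as well.

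The aortas came from 19 male ApoE-/- mice on a C57BL/6J background, fed chow, after 24 h of infusion from a pump placed under the skin. The labels give their age as 8 weeks, while the study's methods put the tamoxifen at that age and the infusion some days later. Of the IKKβ+/+ mice, 5 received saline and 5 received angiotensin II (Ang II), and of the IKKβ-/- mice, 4 received saline and 5 received Ang II. The labels give the dose of Ang II as a range from 500 to 1000 ng/min/kg, of which the study's methods name the upper end for the sequenced mice. IKKβ-/- mice carried SMA-CreERT2 with IKKβ Flox/Flox, and the IKKβ+/+ controls carried SMA-CreERT2 with IKKβ WT/WT, so that every mouse had the Cre and received tamoxifen. The Cre is driven by the promoter of smooth muscle α-actin, so it is meant to delete Ikbkb in smooth muscle and to leave it in endothelium and leukocytes. The vessels were flushed with saline and cleared of outer fat, and whole tissue was used.

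Each mouse had from 11382573 to 19906694 reads on genes. The tissue label was borne out by its markers, with no smooth muscle or endothelial marker at 0 in any mouse, whereas the T cell gene Cd3e was at 0 in 10 mice. Ikbkb averaged 673 ± 78.6 normalized counts in saline-infused IKKβ+/+ mice (SD, n = 5) and 515 ± 74.3 in saline-infused IKKβ-/- mice (SD, n = 4). These groups did not overlap, and 4.08% of all genes tested were likewise lower in IKKβ-/- mice without overlap. The log2 difference of Ikbkb was -0.39 (limma, adjusted p = 0.0988), and averaged over both treatments it was -0.40 (limma, adjusted p = 0.0232). Every IKKβ-/- mouse still had at least 430.2 normalized counts of Ikbkb.

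The genes lie in 4 places of the genome (GRCm38). Sele (chr1:164048234-164057677) and Selp (chr1:164115264-164150026) are on the same strand of chromosome 1, 57586 bases apart. Icam1 (chr9:21015985-21028817) lies 555 bases from Icam4 on chromosome 9. Icam2 (chr11:106377656-106388075) lies 97 bases from Prr29, which is on the other strand, and Vcam1 is at chr3:116109949-116129688. Antisense or long noncoding genes overlap Icam1 (Gm47079), Selp (Gm16587 and Gm16548) and Vcam1 (Gm43109), and the library kit is stated to keep strand.

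The 250 bases before the start site are shown for Sele (chr1:164047984-164048233), Selp (chr1:164115014-164115263) and Icam1 (chr9:21015690-21015939), since the deleted kinase acts through NF-κB at promoters. All 3 are read 5′ to 3′ on the plus strand of GRCm38.p6 from RefSeq, which matched 3 of the 5 genes and not Vcam1 or Icam2. Capitals mark matches to TATAAA and to GGANNTTCC, a loosened NF-κB pattern that was chosen after the sequences were read.
Sele: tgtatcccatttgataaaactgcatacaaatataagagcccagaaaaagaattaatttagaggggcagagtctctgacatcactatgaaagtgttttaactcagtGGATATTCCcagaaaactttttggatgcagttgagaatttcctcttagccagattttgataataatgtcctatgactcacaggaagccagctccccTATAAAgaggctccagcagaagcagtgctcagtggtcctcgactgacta
Selp: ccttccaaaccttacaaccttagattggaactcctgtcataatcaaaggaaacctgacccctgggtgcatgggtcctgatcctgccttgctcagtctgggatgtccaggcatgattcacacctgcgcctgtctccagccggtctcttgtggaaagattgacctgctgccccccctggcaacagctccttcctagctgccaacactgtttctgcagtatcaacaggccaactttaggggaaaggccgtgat
Icam1: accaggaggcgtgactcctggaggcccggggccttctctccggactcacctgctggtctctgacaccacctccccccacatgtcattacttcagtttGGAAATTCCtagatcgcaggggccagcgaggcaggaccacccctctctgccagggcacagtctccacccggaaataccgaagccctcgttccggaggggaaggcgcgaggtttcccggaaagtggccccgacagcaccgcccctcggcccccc

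Letters were searched on both strands, and a match is a description of the letters. The NF-κB consensus was in none of the 3 windows and in 7.25% of all 32817 promoters of the same length. GGANNTTCC stood in Sele from -145 to -137 and in Icam1 from -153 to -145, counted from the RefSeq start site, and in 3.58% of all promoters. For Icam1 the window ends at 21015939, short of the gene start at 21015985 given above, so its RefSeq start is not that one. TATAAA stood in Sele from -49 to -44 and in 12.4% of all promoters. The AP-1 pattern TGANTCA, found in 6.75% of all promoters, was in Sele from -73 to -67 and in Selp from -139 to -133. The ETS core GGAAG, found in 64.1% of all promoters, was in Sele, Selp and Icam1. The GATA pattern GATAAG and the IRF pattern, a pair of GAAA runs spaced by 2 bases, in 6.55% and 2.97% of all promoters, were in none of the 3.

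Per kilobase of exon, the order of the genes differed between the groups. In saline-infused IKKβ+/+ mice, Icam2 and Vcam1 had the highest levels, 316 ± 61.5 and 314 ± 89.9 normalized counts per kilobase (SD, n = 5), which did not differ beyond their spread. Icam1 followed with 175 ± 29.8 and Selp with 164 ± 34.5, again within their spread, and Sele was lowest with 14.0 ± 7.75. In Ang II-treated IKKβ+/+ mice, Icam2 had fallen to 148 ± 41.5 normalized counts per kilobase, below Vcam1 with 209 ± 26.1 and beside Icam1 with 182 ± 52.6 (SD, n = 5). In saline-infused IKKβ-/- mice, Vcam1 with 264 ± 73.6 and Icam2 with 246 ± 52.4 led, and Selp with 122 ± 31.0 and Icam1 with 111 ± 30.8 followed (SD, n = 4). In Ang II-treated IKKβ-/- mice, Icam1 with 199 ± 105, Vcam1 with 184 ± 67.1, Icam2 with 163 ± 85.1 and Selp with 122 ± 61.4 lay within their spread between mice (SD, n = 5). Within every one of these mice, though, Selp was below Icam1, Vcam1 and Icam2. Sele was the lowest of the 5 in every group. Against the longest coding transcript instead of all exons, Vcam1 led in saline-infused IKKβ+/+ mice with 804 ± 229.9 normalized counts per kilobase, ahead of Icam2 with 469 ± 91.4, so the order of these genes depends on the transcript that is assumed.

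**Figure D1:**
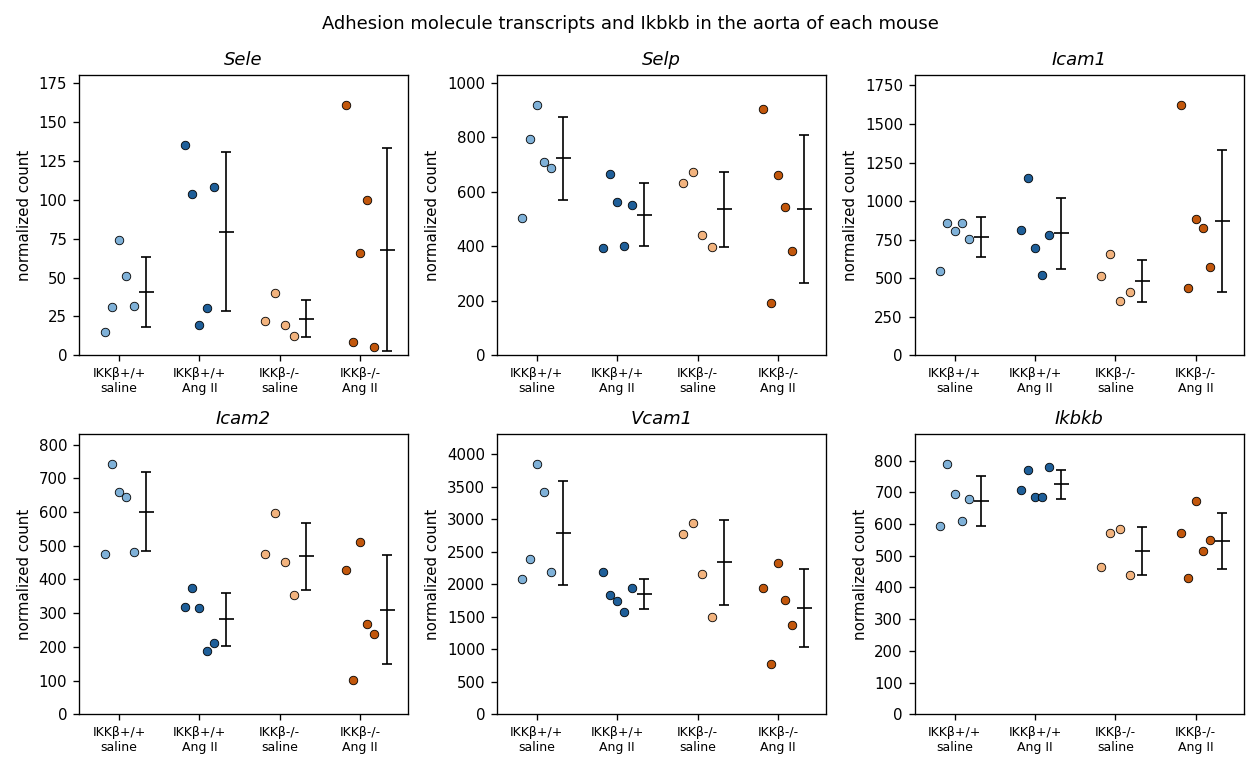
Normalized counts (vertical axis, from 0) of the 5 adhesion genes and of Ikbkb in each of the 19 mice, by group. Each point is a mouse, and the bar beside the points is the mean ± SD. Icam2 is lower in all 5 Ang II-treated than in all 5 saline-infused IKKβ+/+ mice, and Sele varies most, from 5.14 to 161.

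Sele, the selectin that endothelium makes on activation, was the scarcest and most variable of the 5 transcripts, with between 4 and 174 reads in a mouse. Saline-infused IKKβ+/+ mice had 15.3, 31.0, 31.9, 51.3 and 74.0 normalized counts of Sele, and Ang II-treated IKKβ+/+ mice had 19.7, 30.6, 104, 108 and 135. With Ang II, 3 of the 5 mice thus lay above every saline-infused mouse and 2 lay among them. Saline-infused IKKβ-/- mice had 12.3, 19.8, 22.2 and 40.0 normalized counts, and Ang II-treated IKKβ-/- mice had 5.14, 8.73, 65.5, 99.6 and 161. Here too 3 of 5 Ang II-treated mice were above all saline-infused mice, while the other two were below all of them. The highest mouse had 31.3 times the Sele count of the lowest, against 4.62 to 7.27 times for the other members. The log2 fold change with Ang II was 0.78 in IKKβ+/+ mice (95% confidence interval -0.81 to 2.38, limma, adjusted p = 0.606) and 0.69 in IKKβ-/- mice (limma, adjusted p = 0.718), so no difference was detectable over this spread. Both values hung on single mice. The IKKβ+/+ value was 0.49 without X2370, 0.51 without X2350 and 1.19 without X2356, and the IKKβ-/- value was 0.15 without X2380 and 1.33 without X2386. DESeq2 on the recovered reads put the Ang II effect averaged over genotypes at 1.25 on the log2 scale and called it (adjusted p = 0.0661). On the same reads edgeR also gave 1.25 and did not call it (adjusted p = 0.135), and limma gave 0.74 and did not (adjusted p = 0.446).

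Selp, the selectin that endothelium and platelets can release from stores, was far more even. Saline-infused IKKβ+/+ mice had 505, 688, 708, 795 and 919 normalized counts, and Ang II-treated IKKβ+/+ mice had 395, 402, 552, 563 and 665. The means were 723 ± 152 and 515 ± 115 (SD, n = 5 each), and the groups overlapped. Saline-infused IKKβ-/- mice had 396, 443, 632 and 673 normalized counts, and Ang II-treated IKKβ-/- mice had 190.5, 384, 544, 664 and 904. The IKKβ-/- means were nearly equal, 536 ± 137 (SD, n = 4) and 537 ± 271 (SD, n = 5), with a wider range under Ang II. The log2 fold change of Selp was -0.49 in IKKβ+/+ mice (95% confidence interval -1.11 to 0.13, limma, adjusted p = 0.373) and -0.14 in IKKβ-/- mice (limma, adjusted p = 0.864).

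Icam1, the ligand of LFA-1 and Mac-1 that inflammatory signals raise, had a similar mean in both IKKβ+/+ groups. Saline-infused IKKβ+/+ mice had 545, 756, 808, 855 and 861 normalized counts of Icam1, and Ang II-treated IKKβ+/+ mice had 523, 693, 782, 812 and 1149.5. The log2 fold change was 0.02 (95% confidence interval -0.54 to 0.59, limma, adjusted p = 0.975). Saline-infused IKKβ-/- mice had 351, 410.0, 513 and 657 normalized counts, and Ang II-treated IKKβ-/- mice had 438, 572, 827, 882 and 1624. In this genotype 3 of 5 Ang II-treated mice were above all saline-infused mice, and the log2 fold change of 0.74 (95% confidence interval 0.14 to 1.34) missed the threshold (limma, adjusted p = 0.182). Without mouse X2383, the lowest of the Ang II-treated IKKβ-/- mice, the value was 0.95 and passed (limma, adjusted p = 0.0557). DESeq2 on the recovered reads also called it, at 0.85 (adjusted p = 0.0655). The interval of the difference between the genotypes' Ang II effects ran from -0.11 to 1.54 around 0.72 (limma, adjusted p = 0.494).

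Icam2, the other β2 integrin ligand, had the clearest change. Saline-infused IKKβ+/+ mice had 477, 483, 644, 659 and 744 normalized counts of Icam2, and Ang II-treated IKKβ+/+ mice had 186, 213, 315, 319 and 375. All 5 Ang II-treated mice thus lay below all 5 saline-infused mice, as did 4.47% of all genes tested. The mean fell from 601 ± 117 to 282 ± 79.1 (SD, n = 5 each), a log2 fold change of -1.12 ± 0.31 (SE) with a 95% confidence interval from -1.77 to -0.47 (limma, adjusted p = 0.0471). An exact permutation test of this gene alone, two-sided, gave p = 0.00794, the smallest that 5 against 5 mice can give. Leaving out mouse X2358, the lowest of the Ang II-treated IKKβ+/+ mice, the value was -0.98 and no longer passed (limma, adjusted p = 0.140), and it passed without any other mouse.

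In IKKβ-/- mice the Icam2 groups overlapped. Saline-infused IKKβ-/- mice had 353, 452, 475 and 596 normalized counts, and Ang II-treated IKKβ-/- mice had 102, 238, 268, 428 and 512. Of the 5 Ang II-treated mice, 3 lay below every saline-infused mouse. The log2 fold change was -0.77 (95% confidence interval -1.46 to -0.08, limma, adjusted p = 0.226). The Ang II effects of the genotypes differed by 0.35 on the log2 scale (limma, adjusted p = 0.783), so that the call in IKKβ+/+ mice does not set the genotypes apart. Averaged over genotypes, Icam2 fell by 0.94 on the log2 scale (limma, adjusted p = 0.0137), and it was called in 19 of 19 fits that left out a mouse.

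Vcam1, the α4β1 ligand, was the most abundant of the 5 in counts. Saline-infused IKKβ+/+ mice had 2086, 2196, 2388, 3417 and 3858 normalized counts, and Ang II-treated IKKβ+/+ mice had 1573, 1738, 1831, 1946 and 2190.3. Only the highest Ang II-treated mouse exceeded the lowest saline-infused mouse, and the saline group owed its width to 2 mice above the rest. Saline-infused IKKβ-/- mice had 1501, 2155, 2768 and 2937 normalized counts, and Ang II-treated IKKβ-/- mice had 768, 1370.2, 1766, 1938 and 2334. The log2 fold change was -0.55 in IKKβ+/+ mice (limma, adjusted p = 0.213) and -0.56 in IKKβ-/- mice (limma, adjusted p = 0.267), neither past the threshold. For Vcam1 in IKKβ+/+ mice, an exact permutation test gave p = 0.0159, and a fit of these 10 mice alone called it (limma, adjusted p = 0.0717). Averaged over genotypes, Vcam1 fell by 0.56 on the log2 scale (95% confidence interval -0.93 to -0.18, limma, adjusted p = 0.0590). Without any 1 of 5 mice, namely X2358, X2373, X2376, X2401 or X2403, the adjusted p in limma lay between 0.101 and 0.119 and the call was lost, with values from -0.53 to -0.49.

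**Figure D2:**
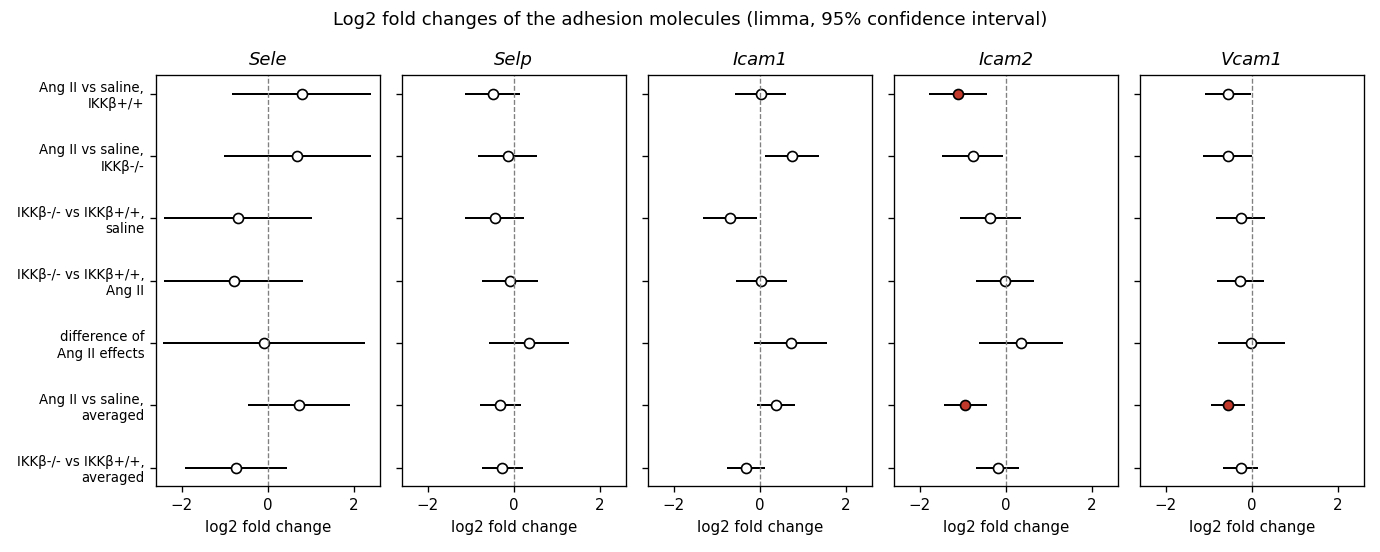
Log2 fold changes of the 5 adhesion genes in 7 comparisons, with 95% confidence intervals from limma. Red points passed the call rule, and the dashed line is at 0. The called values are those of Icam2 for Ang II in IKKβ+/+ mice and of Icam2 and Vcam1 for Ang II averaged over genotypes.

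A gene was called when its adjusted p, taken over all 14845 genes, was under 0.1 and its fold change above 1.2, the study's own rule. For Ang II in IKKβ+/+ mice, 1 of the 5 members was called, with 8.66% of all genes called (4.33% lower), and the median log2 fold change was -0.49 over the members and 0.01 over all genes. With Ang II in IKKβ-/- mice, limma called 0 of 5, with 5.29% of all genes called. At an unadjusted p under 0.05 there were 3 of 5 members in that comparison (Vcam1, Icam1 and Icam2) and 17.8% of all genes, edgeR called 0 of them and 740 of all genes, and DESeq2 called 1, Icam1, and 1162 of all genes. For Ang II averaged over genotypes, 2 of 5 were called, with 12.7% of all genes called (7.05% lower). The averaged comparison uses the same mice as the others and is no separate evidence.

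Between genotypes, limma called no member. With saline, 5.47% of all genes were called. All 5 members had lower means in IKKβ-/- mice, where 47.6% of all genes were higher, with a median log2 difference of -0.44 against -0.02 over all genes. The fall was not particular to the members, since the 13 endothelial markers had a median of -0.48, with 3 of them higher. The 8 smooth muscle markers had a median of 0.29. Icam1 was the nearest to the threshold, with 765 ± 130.03 normalized counts in IKKβ+/+ mice (SD, n = 5) and 483 ± 134 in IKKβ-/- mice (SD, n = 4), a log2 difference of -0.68 (95% confidence interval -1.28 to -0.08, limma, adjusted p = 0.199). An exact permutation test of Icam1 alone gave p = 0.0238, and a fit of these 9 mice alone called it (limma, adjusted p = 0.0634). Icam1 was the 1 member of the 5 with an unadjusted p under 0.05, as had 19.2% of all genes, and edgeR and DESeq2 each called 0 members, with 863 and 1436 of all genes called. With Ang II, 0.128% of all genes were called, and the largest of the members' log2 differences was that of Sele, -0.80 (limma, adjusted p = 0.650), with none of the 5 at an unadjusted p under 0.05, against 14.3% of all genes, and none called by edgeR or DESeq2, which called 17 and 522 of all genes. Averaged over treatments, 7.24% of all genes were called, and the members' log2 differences ran from -0.75 (Sele) to -0.19 (Icam2) with adjusted p in limma of at least 0.342.

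The difference between the genotypes' Ang II effects was called for no member and for no gene by limma (0.0% of all genes), while 1654 genes (11.1%) had an unadjusted p under 0.05, edgeR called 3 genes and DESeq2 called 277, none of them a member. The comparisons share groups of mice with each other, so their values are not independent. Of 30 exact permutation tests of single members, two-sided and unadjusted, 5 gave p under 0.05.

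In whole aorta, a lower transcript count may come from fewer cells of a type or from less RNA per cell, and these cannot be told apart. The endothelial markers moved with several of the values above. Summed over 13 markers, all present in every mouse, they ranged from 25410 to 41660 normalized counts in saline-infused and from 15401 to 29096 in Ang II-treated IKKβ+/+ mice. In IKKβ-/- mice they ranged from 16540 to 33821 with saline and from 10543 to 32095 with Ang II, and the lowest of all was mouse X2383. With Ang II in IKKβ+/+ mice, 2 of the 13 markers were called lower, Tek (log2 fold change -1.08) and Cldn5 (-1.16), and the median over the 13 was -0.62. With Ang II in IKKβ-/- mice none was called lower, 1 was called higher, Kdr (1.79), and the median was -0.19. Summed smooth muscle markers went the other way in IKKβ+/+ mice, from between 344435 and 460995 with saline to between 475749 and 661562 with Ang II. The widest shift in IKKβ-/- mice was that of the adipocyte markers, which summed to between 169 and 647 normalized counts with saline and to between 1266 and 25375 with Ang II. All 5 adipocyte markers tested were called higher there, with a median log2 fold change of 4.46, as were 2 of 5 lymphatic endothelial markers, Lyve1 (1.07) and Mmrn1 (4.43). With the adipocyte markers as a covariate, no member was called in IKKβ-/- mice, with Icam1 at 0.54 (limma, adjusted p = 0.769) and Sele at -0.20 (limma, adjusted p = 0.979). In that fit 3 of all genes were called, against 785 (5.29%) without it. Since the adipocyte sums did not overlap between these groups, the fit could not tell Ang II from the adipocyte markers.

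**Figure D3:**
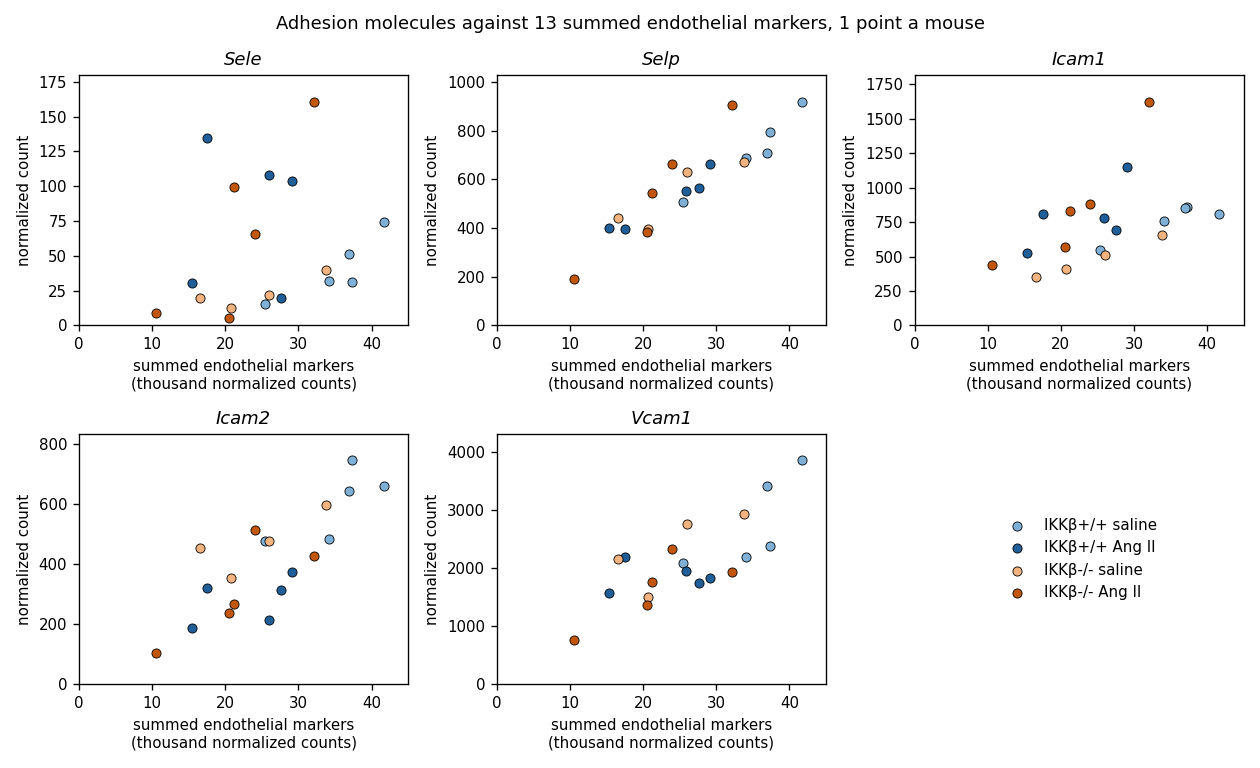
Normalized counts of each adhesion gene (vertical axis) against the sum of 13 endothelial markers in units of 1000 normalized counts (horizontal axis), with 1 point for each of the 19 mice, coloured by group. Selp follows the marker sum across all groups, while for Icam1 the Ang II-treated mice lie above saline-infused mice of like marker sum.

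With the mean log2 level of the endothelial markers as a covariate, the Icam2 value in IKKβ+/+ mice was -0.56 and not called (limma, adjusted p = 0.137), while that in IKKβ-/- mice was -0.94 and called (limma, adjusted p = 0.0114). Averaged over genotypes, Icam2 kept a call at -0.75 (limma, adjusted p = 0.00165), Vcam1 at -0.43 (limma, adjusted p = 0.0534), and Icam1, at 0.53, gained one (limma, adjusted p = 0.0234). Vcam1 in IKKβ-/- mice, at -0.68, was also called in this fit (limma, adjusted p = 0.0648). The share of all genes called with this covariate is not given here, so these calls are not read as particular to the members. The saline genotype differences moved toward 0 with the same covariate, to -0.25 for Icam1 and to between 0.08 and 0.21 for the other members, none called. Smooth muscle or macrophage markers as the covariate likewise ended the Icam2 call in IKKβ+/+ mice, with values of -0.74 (limma, adjusted p = 0.441) and -0.98 (limma, adjusted p = 0.126). The smooth muscle covariate left 85 of all genes called there, against 1286 without it. Since the smooth muscle sums did not overlap between these groups, that fit could not tell Ang II from the smooth muscle markers.

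Each member was then set against the endothelial markers of the same mouse, a measure chosen after the values had been seen. Its p-values, here and in the next paragraph, are thus a description. A ratio within a mouse shows unequal change and not which of the terms changed. Icam1 was at 21.9 ± 1.55 normalized counts per 1000 of the summed markers in saline-infused IKKβ+/+ mice (SD, n = 5, range 19.4 to 23.2) and at 35.03 ± 8.24 in Ang II-treated IKKβ+/+ mice (SD, n = 5, range 25.1 to 46.4). In IKKβ-/- mice it was at 20.1 ± 0.805 with saline (SD, n = 4, range 19.4 to 21.2) and at 39.2 ± 8.21 with Ang II (SD, n = 5, range 27.9 to 50.6). In both genotypes every Ang II-treated mouse was thus above every saline-infused mouse, as were 50 of 14841 genes (0.337%), with 1486 of 14841 in IKKβ+/+ mice alone and 191 (1.29%) in IKKβ-/- mice alone. The ratio was 1.57-fold higher in IKKβ+/+ mice (exact permutation p = 0.00794) and 1.92-fold higher in IKKβ-/- mice (exact permutation p = 0.0159), two-sided and unadjusted. Leaving out any 1 mouse, the folds ran from 1.46 to 1.70 and from 1.79 to 2.08. With the mean log2 marker level in place of the sum, in which the abundant Pecam1 and Vwf weigh less, the folds were 1.46 (exact permutation p = 0.0317) and 1.49 (exact permutation p = 0.0476), and the groups overlapped. The markers in the sum did not move as 1, since the ratio of Eng was also higher without overlap in both genotypes, those of Robo4 and Emcn were so in IKKβ-/- mice, and those of Tek in IKKβ+/+ and of Pecam1 in IKKβ-/- mice were lower without overlap.

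Between the saline-infused genotypes, this ratio of Icam1 was 0.919-fold in IKKβ-/- mice (exact permutation p = 0.0794). Icam2 went the other way from Icam1, from 17.2 ± 2.31 to 12.6 ± 3.64 per 1000 endothelial counts in IKKβ+/+ mice (exact permutation p = 0.0397, n = 5 each) and from 20.1 ± 4.87 (SD, n = 4) to 13.7 ± 4.47 (SD, n = 5) in IKKβ-/- mice (exact permutation p = 0.0635), with overlap in both. Selp stayed within its spread, from 20.5 ± 1.15 to 22.6 ± 2.18 in IKKβ+/+ mice (exact permutation p = 0.0794, n = 5 each). Vcam1 per 1000 endothelial counts averaged 79.1 and 85.7 in IKKβ+/+ mice (exact permutation p = 0.746, n = 5 each) and 99.02 and 76.1 in IKKβ-/- mice (exact permutation p = 0.127). Against the mean log2 marker level instead of the sum, Vcam1 was 0.605-fold (exact permutation p = 0.00794) and Icam2 0.524-fold (exact permutation p = 0.0159) in Ang II-treated IKKβ-/- mice, both without overlap, and Icam2 was 0.664-fold in IKKβ+/+ mice (exact permutation p = 0.0159). With the sum, Vcam1 and Icam2 both overlapped between the IKKβ-/- groups. The share of all genes without overlap against the mean log2 marker level was not computed, so these values are not read as particular to the members. Sele averaged 1.11 with saline and 3.63 with Ang II in IKKβ+/+ mice (exact permutation p = 0.0635, n = 5 each), and 0.958 and 2.7 in IKKβ-/- mice (exact permutation p = 0.421).

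The 2 ICAM transcripts can also be set against each other, which uses no marker list. This ratio too was chosen after the values had been seen, so its p-values are a description. The ratio of Icam1 to Icam2 counts ran from 1.14 to 1.57 in saline-infused and from 2.20 to 3.68 in Ang II-treated IKKβ+/+ mice. In IKKβ-/- mice it ran from 0.777 to 1.16 with saline and from 1.72 to 4.28 with Ang II. The ratio was 2.21-fold higher with Ang II in IKKβ+/+ mice (exact permutation p = 0.00794, n = 5 each) and 2.85-fold higher in IKKβ-/- mice (exact permutation p = 0.0159), with no overlap in either genotype. Since Icam2 itself was low with Ang II, the ratio to Icam2 was higher without overlap for 56.7% of all genes in IKKβ+/+ mice, for 4.79% in IKKβ-/- mice and for 2.97% in both.

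**Figure D4:**
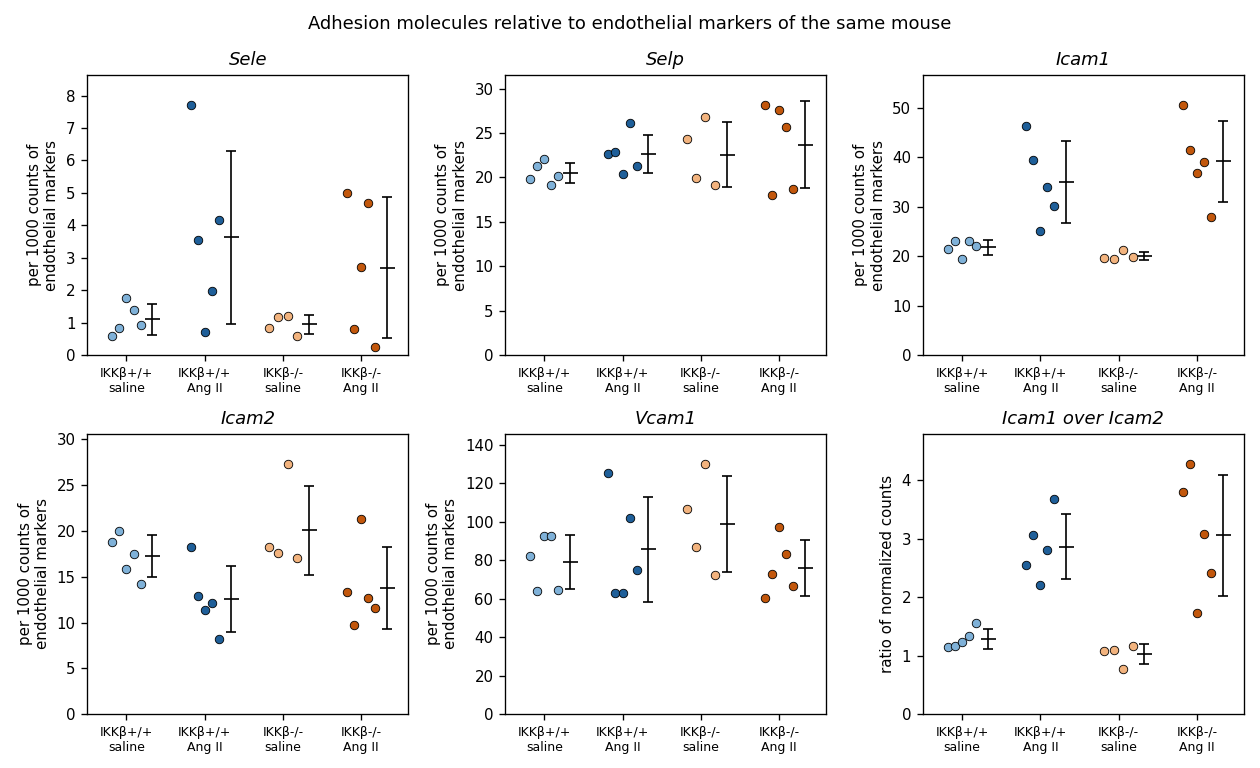
Normalized counts of each adhesion gene per 1000 counts of the 13 summed endothelial markers, and the ratio of Icam1 to Icam2 counts, in each mouse by group. Points are mice and bars are mean ± SD. For Icam1, Ang II-treated mice of both genotypes lie above all saline-infused mice, at 25.1 or more against 23.2 or less.

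Within groups, the members varied together from mouse to mouse. After the group means were removed, Pearson r of log2 values over 19 mice was positive for all 10 pairs of members, and 9 of the 10 had a permutation p under 0.05 after Benjamini-Hochberg adjustment over 45 pairs. Icam1 and Selp were the closest (r = 0.88, rho = 0.83, permutation test, adjusted p = 0.0022), with r = 0.78 without the 2 mice farthest from the median. Icam2 and Sele missed the threshold (r = 0.62, rho = 0.60, permutation test, adjusted p = 0.169). The endothelial marker level correlated with Icam2 (r = 0.85, rho = 0.78), Selp (r = 0.84, rho = 0.81), Icam1 (r = 0.75, rho = 0.73) and Vcam1 (r = 0.71, rho = 0.62), with permutation p of r, adjusted, between 0.0022 and 0.0155, and missed the threshold with Sele (r = 0.48, rho = 0.43, permutation test, adjusted p = 0.300). For Vcam1, r fell to 0.47 without 2 mice, so that this relation rests in part on them (X2383 and X2384). No member passed with the smooth muscle, macrophage, fibroblast, adipocyte, platelet or lymphatic endothelial lists. The values of a mouse come from 1 library and share its scaling. The share of gene pairs at large with such correlations was not computed, so these are not read as particular to the members.

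**Figure D5:**
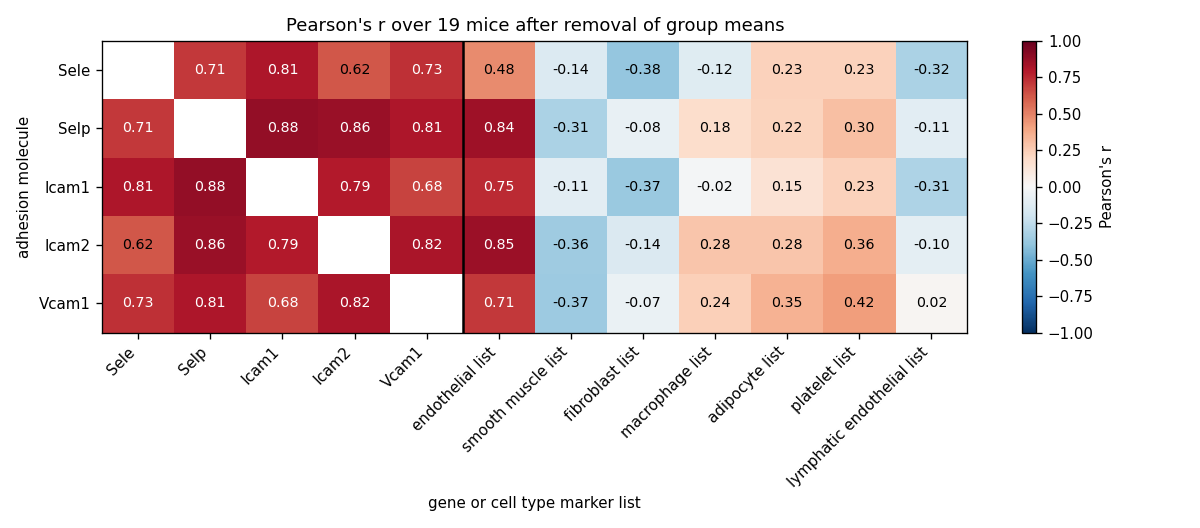
Pearson r of log2 normalized counts over 19 mice, with group means removed, between the 5 adhesion genes and between each and 7 marker lists. Colour gives r on a scale from -1 to 1. The pairs among members and those with the endothelial list are high, up to 0.88, apart from Sele with the endothelial list at 0.48.

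The genes most like each member, by Pearson r of log2 values over all 19 mice among 11421 genes, are given as a description. Selp was closest to Cdh5 (VE-cadherin, r = 0.94), Pecam1 (r = 0.92), Cmip (r = 0.92), Cd93 (r = 0.91) and B3gnt3 (r = 0.91). Icam2 was closest to the endothelial receptor Tie1 (r = 0.93) and to Cytl1 (r = 0.92), Pkn3 (r = 0.91), Enpp6 (r = 0.91) and Klk10 (r = 0.90). Vcam1 was closest to Enpp6 (r = 0.88), Icam2 (r = 0.87), Ehd4 (r = 0.87), Tie1 (r = 0.85) and Ccna2 (r = 0.85). Icam1 was closest to Tspan6 (r = 0.86), the endothelin-converting enzyme Ece1 (r = 0.85), Adgrg1 (r = 0.85), Emcn (r = 0.84) and Hdac7 (r = 0.83). Sele was closest to Sdcbp2 (r = 0.88), the protein C receptor Procr (r = 0.83), Pdgfb (r = 0.80), Icam1 (r = 0.78) and Dvl1 (r = 0.76).

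Among the leukocyte integrins and other binding partners, 14 of 16 genes were tested. Beside the counts of this and the following lists stand the shares of all genes called, 8.66% for Ang II in IKKβ+/+ mice, 5.29% in IKKβ-/- mice and 5.47% between the saline-infused genotypes. For Ang II in IKKβ+/+ mice, 2 were called higher, Itgb1 (log2 fold change 0.64, limma, adjusted p = 0.0630), a β chain that most cells carry and the partner of α4, and the hyaluronan receptor Cd44 (1.01, limma, adjusted p = 0.0898). With saline, 2 were called lower in IKKβ-/- mice, Itgb2, the β2 chain that binds ICAMs (-1.43, limma, adjusted p = 0.0367), and Itgax, its α chain on dendritic cells and macrophages (-1.99, limma, adjusted p = 0.0902). Itgb2 averaged 228 ± 80.8 normalized counts in IKKβ+/+ (SD, n = 5) and 81.0 ± 6.83 in IKKβ-/- mice (SD, n = 4) without overlap. Macrophage marker sums ranged from 5242 to 7319 in the former and from 3306 to 4849 in the latter, and their part in the result was not tested. The list's highest means were those of Itgb1 and Itga9.

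Of the other endothelial adhesion and transmigration genes, 17 of 22 were tested and 3 were called for Ang II in IKKβ+/+ mice, where 8.66% of all genes were. Podxl (-1.19, limma, adjusted p = 0.0142), a sialomucin of the luminal surface, and the related Cd34 (-0.80, limma, adjusted p = 0.0419) were lower, and the nectin-like receptor Pvr was higher (1.03, limma, adjusted p = 0.0466). In IKKβ-/- mice, Podxl was lower as well (-0.93, limma, adjusted p = 0.0704), the 1 gene of the list called there, against 5.29% of all genes. Podxl, like Icam2, had no overlap between the IKKβ+/+ groups, with means of 3601 ± 772 and 1575 ± 278 normalized counts (SD, n = 5 each). Mcam and Pecam1 had the highest means of the list and were not called.

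Of 11 genes tested for the making of selectin ligands, Tpst1, a tyrosine sulfotransferase, was called lower for Ang II in IKKβ+/+ mice (-0.35, limma, adjusted p = 0.0847), and none was called in the other comparisons within a treatment or a genotype. B4galt1 and Tpst1 had the highest means. Of 12 genes for shedding, storage and anchoring, the sheddases Adam10 (-0.50, limma, adjusted p = 0.0214) and Adam17 (-0.38, limma, adjusted p = 0.0678) were lower for Ang II in IKKβ+/+ mice, and Cd63, a membrane protein of the P-selectin granules and of lysosomes, was higher (0.30, limma, adjusted p = 0.0953). With saline, Adam17 (-0.54, limma, adjusted p = 0.0475) and the ICAM anchor Ezr (-0.62, limma, adjusted p = 0.0736) were lower in IKKβ-/- mice. The actinins Actn1 and Actn4 had the list's highest means.

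Of 34 genes for NF-κB, cytokine receptors and related inputs, 30 were tested. Ang II in IKKβ+/+ mice gave 2 called higher, Nfkbia (0.89, limma, adjusted p = 0.0107), the NF-κB inhibitor and target IκBα, and Il4ra (0.52, limma, adjusted p = 0.0552), the interleukin-4 receptor chain, and 1 was called lower, the transcription factor Irf1 (-1.05, limma, adjusted p = 0.00663). For Ang II in IKKβ-/- mice, Il4ra was higher (0.98, limma, adjusted p = 0.00368) and Klf2, a flow-induced factor of endothelium, was lower (-1.14, limma, adjusted p = 0.0177). With saline, 5 genes were called lower in IKKβ-/- mice, among them Il4ra (-0.78, limma, adjusted p = 0.0367), the NF-κB feedback inhibitor Tnfaip3 (-0.96, limma, adjusted p = 0.0512) and Ikbkb itself. With Ang II, none of the lists had a gene called between genotypes. Cxcl12 and Ifngr1 had the highest means of this list.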

How the data were processed

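Bulk RNA-Seq of the suprarenal aorta of 19 mice was analysed. The authors deposited normalized counts, a signal that is never negative: poly(A) stranded libraries were sequenced as single reads, trimmed with Trimmomatic 0.35, aligned to GRCm38 with STAR 2.7.1a, counted on Gencode genes (the submitters' processing notes also name RSEM) and scaled by DESeq2 1.30.1 size factors. All values (100%) were within 0.02 of a whole number of reads once divided by the step of 1 read, and the reads were recovered from this. In mouse X2359 the step lies so near 1 that a rounding of the values could not be told from it by the step alone, which bears on the edgeR and DESeq2 values. All per-sample columns were used, and 13 symbols occurred more than once, none of them a member.

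Genes reaching 10 normalized counts in 4 or more mice were kept (14845), and log2(normalized count + 1) was fitted with limma 3.58.1 in R 4.3.3 (lmFit and eBayes with a trend) as 4 group means over all mice. Fold changes are on this scale, which understates those of scarce genes. Adjusted p is Benjamini-Hochberg over all genes tested. On simulated data for Ang II against saline in IKKβ+/+ mice, 180 of 200 changed genes and 15 unchanged genes were called among 14845. The share called at the spread and fold changes of the members was not tested. Single members were tested by exact permutation, and correlations by 100000 permutations within groups.

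The members and lists were chosen with earlier results of these data known. All 5 members are named. Of the other lists, genes called in any of the 5 comparisons (Ang II in each genotype, genotype with each treatment, and the difference) are named, up to 6 by smallest p, with the 2 highest means, and for each member the 5 genes of highest r. Alternatives were a stricter p or fold, pseudocount 4, no filter, only the groups compared, TMM scaling, array weights, edgeR 4.0.16 and DESeq2 1.42.0 on the recovered reads, marker covariates, and each mouse left out. The smooth muscle covariate, the ratios to endothelial markers and the ratio of Icam1 to Icam2 were added after the data were seen. For Ang II in IKKβ+/+ mice, limma called 1286 genes, edgeR 1400 and DESeq2 1883. Depth was 11382573 to 19906694 reads on genes. Lengths came from Gencode annotation of GRCm38, and promoters and their motif shares from RefSeq GRCm38.p6.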

Additional observations from a re-analysis of the deposited data

How the results depend on the processing

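No paired analysis was possible because the groups share no mouse numbers. The number of members called for Ang II in IKKβ+/+ mice, 1 as reported, was 2 in a fit of those groups alone, 0 with the endothelial, macrophage or smooth muscle covariate, and 0 to 1 with a mouse left out (0 without X2358). In IKKβ-/- mice it was 0, but 1 by DESeq2, 2 with the endothelial covariate and 0 to 1 with a mouse left out (1 without X2383). With saline between genotypes it was 0, but 1 in a fit of those groups alone. Averaged over genotypes it was 2, but 1 at an adjusted p under 0.05, at a fold above 1.5 or with the smooth muscle covariate, 3 by DESeq2 (with Sele) or with the endothelial covariate (with Icam1), and 1 to 3 with a mouse left out (1 without X2358, X2373, X2376, X2401 or X2403, and 3 without X2383, where Icam1 at 0.49 was added). For the difference and the averaged comparisons, a fit of only the groups compared is the fit of all 4 groups and was not run apart. Over these alternatives other than leaving out a mouse, the number of all genes called ran from 85 (smooth muscle covariate) to 2074 (array weights) against 1286 for Ang II in IKKβ+/+ mice, from 3 (adipocyte covariate) to 1162 (DESeq2) against 785 in IKKβ-/- mice, from 6 (adipocyte covariate) to 1902 (array weights) against 812 between saline-infused genotypes, from 0 to 522 (DESeq2) against 19 between Ang II-treated genotypes, and from 795 (adipocyte covariate) to 2294 (DESeq2) against 1887 for Ang II averaged over genotypes.

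No called value turned in sign. With the endothelial covariate the values that turned were, on the log2 scale, Selp 0.037 for Ang II in IKKβ+/+ mice; Vcam1 0.12, Icam2 0.21, Sele 0.077 and Selp 0.10 between saline-infused genotypes; Icam1 -0.090 between Ang II-treated genotypes; Icam2 -0.38 and Selp -0.34 for the difference of effects, and Icam2 0.017 between genotypes averaged over treatments. With the adipocyte covariate they were Icam1 -0.015 for Ang II in IKKβ+/+ and Sele -0.20 in IKKβ-/- mice, Icam1 -0.026 between Ang II-treated genotypes and Icam2 -0.013 for the difference. With the smooth muscle covariate they were Icam1 -0.032 between Ang II-treated genotypes, and Icam2 -0.19 and Selp -0.105 for the difference. With the macrophage covariate they were Icam2 0.072 between Ang II-treated genotypes and Sele 0.072 for the difference. With edgeR and DESeq2 alike, Selp for Ang II in IKKβ-/- mice was 0.0016 and 0.0025, Icam2 between Ang II-treated genotypes 0.14 and 0.14, Selp there 0.0601 and 0.0601, and for the difference Vcam1 0.0703 and 0.0706 and Sele 0.55 and 0.56. Array weights gave Icam1 -0.15 between Ang II-treated genotypes. Exact permutation on normalized counts in place of log2 values gave p = 1.0 for Selp with Ang II in IKKβ-/- mice, and p = 0.714 for Icam2 and p = 0.913 for Selp between Ang II-treated genotypes. Per endothelial marker score, the log2 difference with Ang II was -0.024 for Vcam1 in IKKβ+/+ mice, -0.30 for Selp in IKKβ-/- mice and -0.13 for Selp averaged over genotypes.

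With each mouse left out, signs turned for Icam1 with Ang II in IKKβ+/+ mice (-0.12 to 0.16), Selp in IKKβ-/- mice (-0.37 to 0.19), Icam1 (-0.23 to 0.24), Icam2 (-0.24 to 0.34) and Selp (-0.32 to 0.24) between Ang II-treated genotypes, Vcam1 (-0.21 to 0.23) and Sele (-0.64 to 0.54) for the difference, and per endothelial counts Vcam1 in IKKβ+/+ (-0.073 to 0.18) and Selp in IKKβ-/- mice (-0.017 to 0.15). The cause was not tested. Sele had 4 to 174 reads in a mouse, and the part of depth in its spread was not tested.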
